A study of Mus musculus with 6 samples.

Results

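Hox genes are the clustered homeobox genes of the Hoxa, Hoxb, Hoxc and Hoxd loci, and their signal was followed here on 6 arrays of RW4 mouse embryonic stem cells. Members were all genes whose symbol in the platform annotation was Hoxa, Hoxb, Hoxc or Hoxd followed by a number, each read from its brightest probe set. This gave 37 Hox genes with a probe set of their own, among 19938 genes measured. The Hoxa cluster gave 10 members and each of the other clusters gave 9. Each member was read by 1 probe set. Hoxb8 was listed only on a probe set shared with Hoxb7, so it has no value of its own; that shared probe set had a mean of 2.74.

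Biotin-labelled total RNA was hybridised to single-colour Affymetrix arrays in 3 groups of 2: cells without drug, cells under 1 µM 4-hydroxytamoxifen (abbreviated 4OHT), and cells under Shld1 at the same 1 µM. RW4 is a line of undifferentiated mouse stem cells, grown in all groups on gelatin with serum and leukemia inhibitory factor (LIF), a cytokine that holds such cells undifferentiated. The labels tie 4OHT to an induction system named ERT2, a ligand-binding domain of the estrogen receptor, and Shld1 to one named FKBP, a domain that Shld1 stabilises, and call the untreated arrays WT. Presence of such a fusion in the cells, the length of treatment, the vehicle of the untreated cells and the origin of the duplicates (separate cultures or 1 culture) are left unsaid there. P-values therefore measure only the spread between these particular samples, and that spread may be technical.

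Hox proteins are DNA-binding transcription factors that give cells of the embryo their position along the head-to-tail axis. Within a cluster the genes lie in the order of their paralog numbers: low numbers act in the hindbrain and neck, central numbers in the trunk, and high numbers in the tail, limbs and urogenital tract. In undifferentiated stem cells Hox promoters, which are rich in CpG, are known to carry the polycomb mark H3K27me3 together with the trithorax mark H3K4me3 and to be little transcribed. Retinoic acid and Wnt signals, the latter through the Cdx factors, open the clusters during differentiation.

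Promoter sequences are shown first because base composition was not used to choose the members. The olfactory receptors, the genes used here as a view of background, differ from most of the matched members in it. The relation of promoter composition to array signal was not tested. RefSeq windows of 300 bases on GRCm38.p6 ran from 250 bases before to 50 after the annotated start. They matched 21 of the 37 members, and the 16 unmatched were Hoxa4 and Hoxb and Hoxc genes. Of 32841 windows only the first listed for each of 27018 genes was used, so other annotated starts were left out. The 250 bases before the start follow for 3 members and for Olfr1316, an olfactory receptor gene whose signal (2.40) lay nearest to the median of its class. Hoxb1 had among the highest signals, Hoxa6 lay next to the low-signal level, and Hoxd13 is the last gene of its cluster. Bases run 5′ to 3′ on the gene's strand, and capitals mark CpG.
Hoxb1 promoter, chr11:96365508-96365757, plus strand: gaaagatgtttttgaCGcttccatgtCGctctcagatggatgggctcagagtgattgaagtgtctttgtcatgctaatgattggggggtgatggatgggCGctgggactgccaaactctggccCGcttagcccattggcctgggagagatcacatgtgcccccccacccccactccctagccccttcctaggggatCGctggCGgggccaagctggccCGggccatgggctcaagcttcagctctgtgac
Hoxa6 promoter, chr6:52208673-52208922, minus strand: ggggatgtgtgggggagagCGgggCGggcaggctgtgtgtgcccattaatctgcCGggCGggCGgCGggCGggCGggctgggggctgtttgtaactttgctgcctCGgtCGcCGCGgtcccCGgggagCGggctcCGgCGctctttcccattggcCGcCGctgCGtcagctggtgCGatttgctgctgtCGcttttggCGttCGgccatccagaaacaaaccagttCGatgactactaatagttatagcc
Hoxd13 promoter, chr2:74667975-74668224, plus strand: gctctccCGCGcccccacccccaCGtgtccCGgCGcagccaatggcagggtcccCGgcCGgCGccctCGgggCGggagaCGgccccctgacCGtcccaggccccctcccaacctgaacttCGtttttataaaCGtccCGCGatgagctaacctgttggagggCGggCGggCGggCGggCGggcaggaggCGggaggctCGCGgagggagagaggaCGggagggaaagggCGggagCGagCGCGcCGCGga
Olfr1316 promoter, chr2:112130816-112131065, minus strand: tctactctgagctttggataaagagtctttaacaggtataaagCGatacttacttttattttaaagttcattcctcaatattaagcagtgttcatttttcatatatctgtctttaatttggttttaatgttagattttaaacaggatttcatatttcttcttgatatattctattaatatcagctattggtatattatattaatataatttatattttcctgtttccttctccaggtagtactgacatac

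The Hoxb1 stretch held 7 CpG at 59.2% GC, the Hoxa6 stretch 24 at 65.2%, the Hoxd13 stretch 31 at 74.4% and the Olfr1316 stretch 1 at 26%. Over the whole 300-base windows, the 21 members had a median GC share of 58%, against 52.7% over 27018 genes and 35% over 944 olfactory receptor genes. Their median number of CpG was 14, against 7 and 1, and their median ratio of observed to expected CpG was 0.59, against 0.39 and 0.11. Members differed widely: Hoxa13 had the highest GC share (81%, with 45 CpG) and Hoxd4 the lowest (39.7%). Short motifs were searched on both strands, and their matches may overlap. TATAAA, the core of a TATA box, was in 2 of 21 windows (9.52%), against 14.2% of all genes and 41.1% of olfactory receptors. AGGTCA, the half-site read by nuclear receptors, was in 7 (33.3%), against 16% and 12.9%. TGATNNAT, a form of the site bound by Hox and Pbx proteins together, was in 2 (9.52%), against 9.05% and 27%; these were Hoxa2 and Hoxb1. A match is a string of letters and shows no binding.

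**Figure D1:**
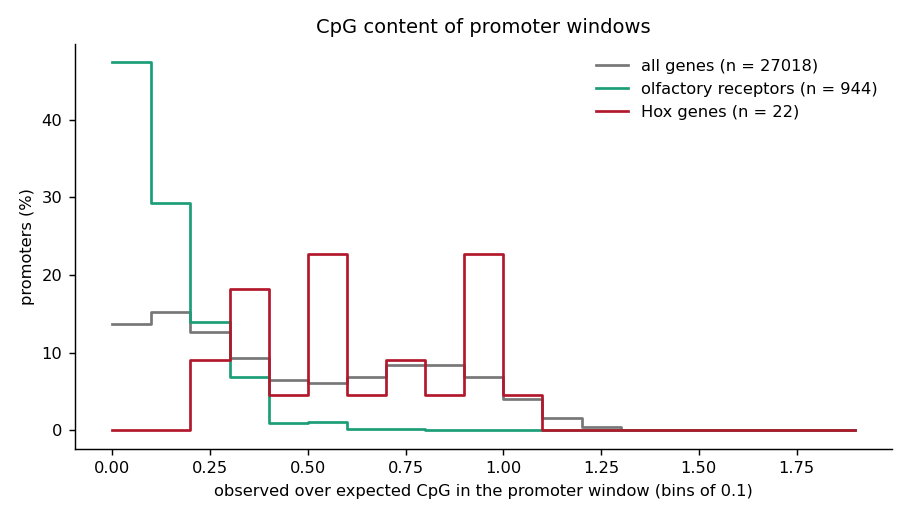
Distribution of observed over expected CpG (x axis, bins of 0.1) in RefSeq promoter windows, as a percentage of each class (y axis): all genes, olfactory receptor genes, and 22 Hox genes, which are the 21 members plus Hoxb8. Olfactory receptor promoters pile up near 0 (median 0.11), whereas the Hox promoters spread from 0.26 to 1.02.

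All values below are log2 signal as deposited, and a difference of 1 is 2-fold. Array medians over all probe sets lay between 4.20 and 4.32. Shld1 replicate 2 and 4OHT replicate 1 had the narrowest spread of values (SD 2.24 and 2.29, against 2.33 to 2.35 on the others). Low signal was raised on Shld1 replicate 2, where the median olfactory receptor gene read 2.57, against 2.31 to 2.40 on the other arrays. The lower quartile of all probe sets was 2.94 there and 2.89 on 4OHT replicate 1, against 2.77 to 2.82 on the others. Genes with a mean in the Hox range had a median of 3.72 on 4OHT replicate 1 and 3.69 on Shld1 replicate 2. On the other arrays that median was 3.56 to 3.62. All 10 markers of undifferentiated stem cells, among them Pou5f1 (10.37), Sox2 (10.66) and Nanog (10.87), were bright, with a median of 10.09.

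Hox genes gave low signal in every group. The low-signal level was set at 3.71, the 95th percentile of 1027 olfactory receptor genes, whose known use is in sensory neurons of the nose. By their means over 6 arrays, 16 of 37 Hox genes (43.2%) lay above it, against 64.4% of all genes. Hox means ran from 2.53 for Hoxb6, which marks trunk lateral mesoderm, to 4.95 for Hoxa4, which patterns the neck vertebrae, and their median of 3.54 was at the 32.5th percentile of all genes. On every array 15 members were above the level, and 17 were above it on none. In bulk RNA, fewer cells expressing a gene and less RNA per cell cannot be told apart. Probe sets also differ in how well they bind, so signals of different Hox genes are a description and not an order of RNA amounts.

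**Figure D2:**
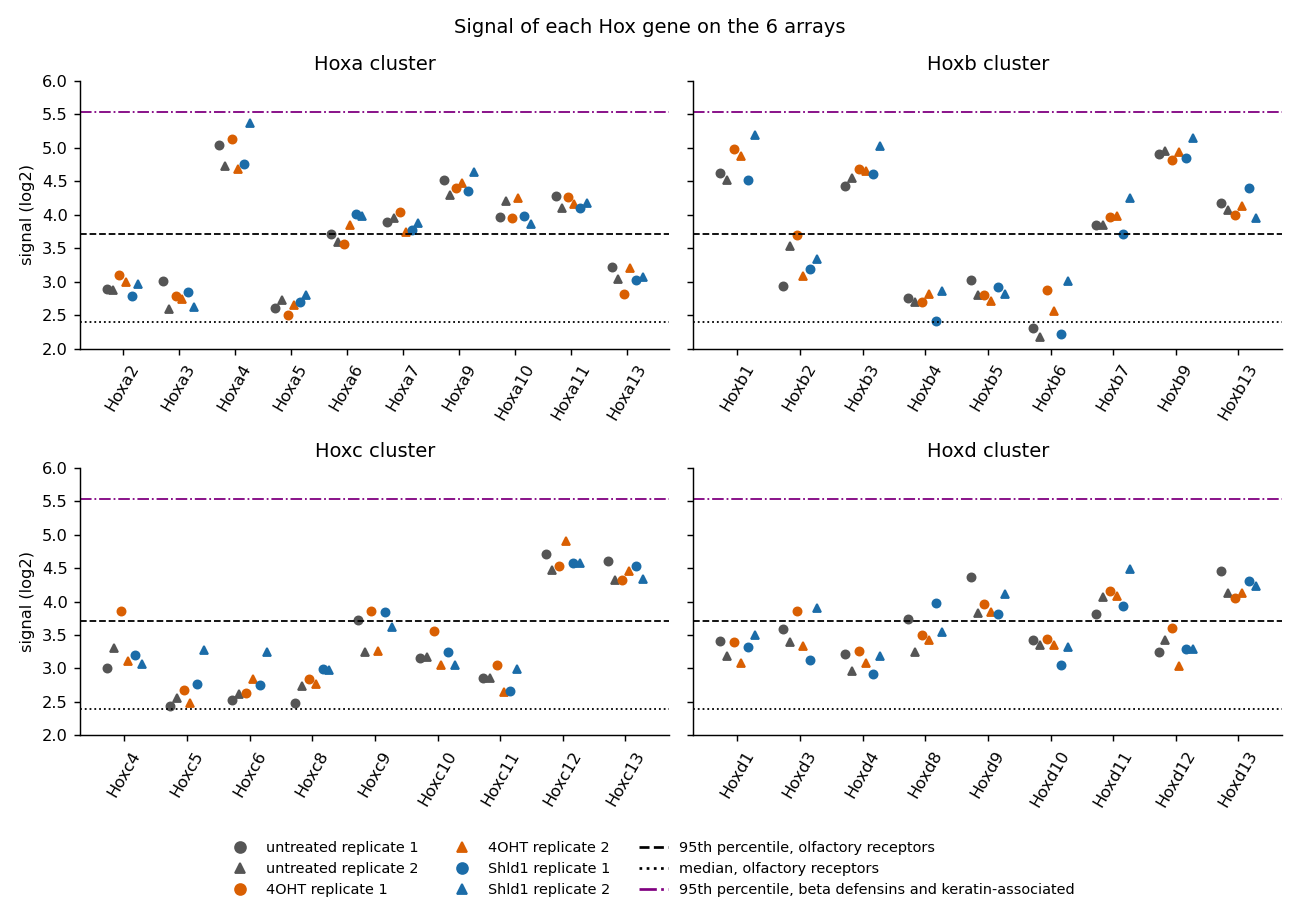
Log2 signal (y axis) of each of the 37 Hox genes (x axis, by cluster and paralog number) on the 6 arrays, with colour for the group and shape for the replicate. Horizontal lines mark the median (2.39) and 95th percentile (3.71) of the olfactory receptor genes and the 95th percentile of beta defensin and keratin-associated protein genes (5.53); no Hox gene's mean reaches the last of these.

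The count above background depended on which genes stood for it. With the 90th percentile of the olfactory receptors (3.39), 19 Hox genes lay above, and with the 99th (4.54), 5 did: Hoxa4, Hoxb9, Hoxb1, Hoxb3 and Hoxc12. Vomeronasal receptor genes gave a lower level (3.11) and 25 Hox genes above it. Beta defensin and keratin-associated protein genes gave a higher level (5.53) and no Hox gene above it, whereas 36.1% of all genes passed. Next to the level of 3.71 lay Hoxd3 (3.54), Hoxd8 (3.57) and Hoxc9 (3.59) on the lower side, and Hoxa6 (3.79), Hoxa7 (3.88) and Hoxb7 (3.94) on the upper side.

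Among the anterior genes (paralogs 1 to 4), 3 of 11 were above the level, and the median was 3.30. Hoxa4 read 5.04 and 4.73 on the untreated arrays, 5.14 and 4.68 with 4OHT, and 4.76 and 5.38 with Shld1. Hoxb1, which sets the identity of a hindbrain segment that makes facial motor neurons, read 4.63 and 4.52 untreated, 4.98 and 4.88 with 4OHT, and 4.52 and 5.19 with Shld1. Hoxb3, which acts in the posterior hindbrain, read 4.43 and 4.55, then 4.69 and 4.66, then 5.04 on Shld1 replicate 2 and 4.61 on replicate 1. All 3 had their highest value on Shld1 replicate 2. The duplicates of Hoxa4 overlapped in all groups, while both 4OHT arrays were above both untreated arrays for Hoxb1 and Hoxb3. The other 8 anterior genes had means from 2.71 (Hoxb4, a regulator of blood stem cells) to 3.54 (Hoxd3), in the upper part of the olfactory receptor range. Hoxb2, a hindbrain gene that Hoxb1 acts on, had a mean of 3.30.

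Central genes (paralogs 5 to 8) gave the lowest signal of the 3 zones: 3 of 10 were above the level, and the median was 2.83. The 3 were Hoxb7, Hoxa7 and Hoxa6, all genes of the thoracic region. Hoxb7 read 3.85 and 3.84 untreated, 3.97 and 3.99 with 4OHT, and 3.72 and 4.25 with Shld1. Hoxa7 stayed between 3.74 and 4.04 on all arrays. None of the paralog 5 genes was above the level on any array: Hoxa5, which is needed for the respiratory tract, had a mean of 2.67, Hoxc5 2.70, and Hoxb5, which acts in the neural crest of the gut, 2.85.

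Posterior genes (paralogs 9 to 13) were above the level in 10 of 16 cases, each of the 10 on all 6 arrays, and had a median of 4.06. Hoxb9, a gene of the rib cage, read 4.92 and 4.95 untreated, 4.82 and 4.94 with 4OHT, and 4.85 and 5.14 with Shld1. Hoxc12 read 4.72 and 4.47, 4.54 and 4.90, and 4.58 on both Shld1 arrays. Hoxc13, which drives keratin genes of hair and nail, read 4.61 and 4.32, 4.32 and 4.45, and 4.52 and 4.33. For each of these the groups overlapped. Hoxa9, a thoracic gene that also acts in blood progenitors, had a mean of 4.45, and Hoxa11, which patterns the forearm and uterus, one of 4.18. Hoxa11 was also the steadiest member, with 0.18 between its highest and lowest array. Hoxa10 (4.04), which acts in lumbar segments and the uterus, Hoxb13 (4.13), which acts in the tail and prostate, and the limb genes Hoxd13 (4.22), Hoxd11 (4.09) and Hoxd9 (3.99) completed the 10. The remaining posterior genes were lower: Hoxa13, which like Hoxd13 patterns digits, had a mean of 3.06, and Hoxc11 had 2.85.

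By cluster, 6 of 10 Hoxa, 5 of 9 Hoxb, 2 of 9 Hoxc and 3 of 9 Hoxd genes lay above the level, with medians of 3.83, 3.94, 3.21 and 3.54. By paralog number, 3 of 4 genes in groups 9 and 13 and both of group 7 were above it, and none in groups 2, 5 and 8. The zones kept their order on all arrays: posterior medians ran from 3.96 to 4.11, anterior from 3.08 to 3.71 and central from 2.78 to 3.26. Since each zone or cluster is read by a different set of probes, its median carries their affinities, and no test was made between zones or clusters.

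Genes next to the clusters and genes that act on them gave a frame for these levels. The median signal of the flanking genes ran from 4.98 at Hoxb to 6.72 at Hoxc, and each flank held a wide range. At Hoxa, Tax1bp1 had a mean of 7.85, Skap2 6.36 and Jazf1 4.10. At Hoxb, Nfe2l1 had 8.58, Cbx1 7.73, Ttll6 3.78 and Skap1 2.95. At Hoxc, Copz1 had 8.75, Cbx5 7.85, Smug1 4.18 and Nfe2 3.49, and at Hoxd, Nfe2l2 had 8.67, Mtx2 7.18 and Chn1 5.42. The homeobox genes that sit at the cluster ends, Evx1 beside Hoxa and Evx2 beside Hoxd, read 3.25 and 4.43, within the Hox range. Of the flanking genes measured, 5 of 6 at Hoxa, 5 of 6 at Hoxb, 4 of 5 at Hoxc and 6 of 6 at Hoxd were above the level.

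Polycomb genes, whose products hold Hox clusters silent, were measured for 31 of 33 listed and were above the level in 30, with a median of 6.68. Suz12, a core subunit of the complex that writes H3K27me3, read 10.04, the methyltransferase Ezh2 read 8.52, and Jarid2, which helps recruit the complex, read 8.94. The trithorax and H3K27 demethylase genes, whose products oppose polycomb, were all above the level (15 of 15, median 7.43), as were the 9 genes of cohesin and Ctcf, which fold and insulate the clusters (median 7.83). TALE cofactors bind DNA with Hox proteins. Of the 8 measured, 7 were above the level, led by Pbx2 at 7.25.

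Retinoic acid genes were mixed. The receptors Rara (8.01) and Rarg (6.52) were bright. Rarb (3.89), itself a retinoic acid target, and Cyp26a1 (2.85), the target enzyme that breaks retinoic acid down, were close to or below the level. Of 19 genes 13 (68.4%) lay above it, against 64.4% of all genes. Among the ParaHox and Hox-linked genes 4 of 9 did, and of the Cdx factors Cdx1 read 4.45, Cdx2 3.11 and Cdx4 1.93.

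**Figure D3:**
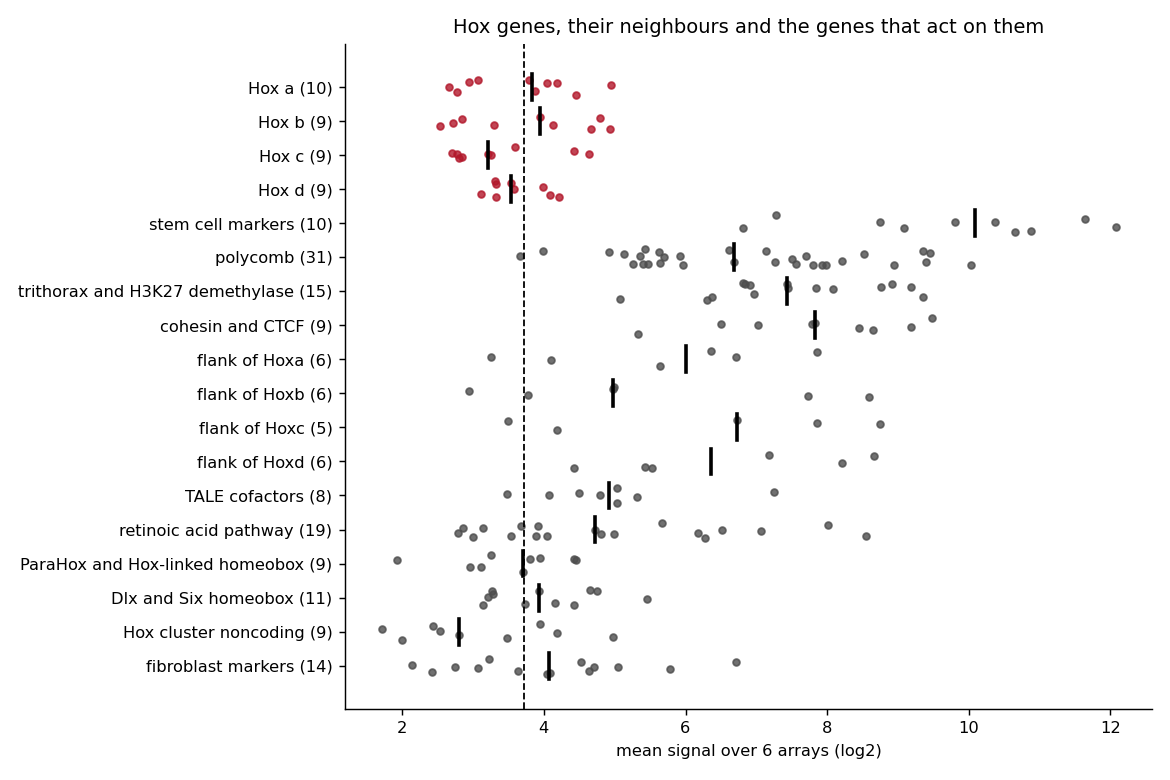
Mean log2 signal over 6 arrays (x axis) of each gene (points) in the 4 Hox clusters (red) and in lists of neighbouring, regulating and marker genes (grey), with the number of genes measured in brackets and a black bar at each median. The dashed line is the low-signal level of 3.71; the Hox medians lie from 3.21 to 3.94, against 6.68 for polycomb genes and 10.09 for stem cell markers.

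Markers of other cell types were read beside the Hox genes, because fibroblasts and differentiated cells express Hox genes. Of 14 fibroblast markers 8 (57.1%) were above the level, against 64.4% of all genes. The list's median by array ran from 3.98 to 4.15 in untreated, 4.02 to 4.11 in 4OHT and 4.04 to 4.15 in Shld1 arrays. Lum (2.14), Postn (2.43) and Dcn (2.74), genes of fibroblast matrix, were below the low-signal level, while Fbln1 read 6.71 and Thy1 5.78. Above the level were also 5 of 8 mesoderm, 5 of 8 neural and 5 of 8 trophoblast markers (62.5% each), close to the share of all genes. Of the endoderm markers 6 of 7 (85.7%) were. The part of such cells in the Hox signal was not tested.

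The array also named noncoding genes that lie inside the clusters, 9 of 16 listed. The mature products of the miRNA genes are shown because miR-10 and miR-196 form families that recur between clusters and target Hox transcripts. Sequences are from RefSeq (GRCm38.p6), with the seed (bases 2 to 8) in capitals; the sources used here do not say whether the array's probes read the mature or a precursor form.
mmu-miR-10a-5p: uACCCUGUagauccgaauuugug
mmu-miR-10b-5p: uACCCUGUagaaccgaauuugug
mmu-miR-196a-5p: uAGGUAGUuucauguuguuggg
mmu-miR-196b-5p: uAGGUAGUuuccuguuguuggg
mmu-miR-615-3p: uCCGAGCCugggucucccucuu

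miR-10a (Hoxb) and miR-10b (Hoxd) share the seed ACCCUGU, and miR-196a (Hoxb and Hoxc) and miR-196b (Hoxa) share AGGUAGU. Mir10a and Mir10b gave means of 2.00 and 1.71, below the olfactory median of 2.39. Mir196b read 3.39 and 3.11 untreated, 3.73 and 3.30 with 4OHT, and 3.70 and 3.63 with Shld1, and Mir196a-2 had a mean of 2.53. Above the level were Mir615 (4.98), Mir196a-1 (4.19) and Hoxaas2 (3.95), an antisense gene of the Hoxa cluster. Mir196a-1 had the widest range of the 9, at 3.94 and 4.92 untreated, 4.11 and 4.38 with 4OHT, and 4.31 and 3.48 with Shld1. Hottip, a long noncoding RNA from the end of Hoxa, read 2.44. None of the 9 passed the adjusted test in any comparison (limma). At an unadjusted p under 0.05 only Mir196b with Shld1 did (difference from untreated 0.41, SE 0.18). With Shld1, 2.41% of all genes were higher and 1.94% lower at that threshold (limma). Among genes with a mean signal in the range of the Hox genes these shares were 3.72% and 2.58%. Mir196b had a mean of 3.47, below the low-signal level.

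4OHT was compared with untreated cells first. No Hox gene, and 0% of all 19938 genes, had an adjusted p under 0.05 (limma, Benjamini-Hochberg). At an unadjusted p under 0.05, 0 Hox genes passed, against 2.57% of all genes higher and 2.42% lower, and 4.47% and 1.84% of the 8541 genes whose mean signal lay in the Hox range. Hox differences from untreated ran from -0.20 to 0.47 with a median of 0.03, against -0.01 over all genes. With 4OHT 23 were higher and 14 lower, so 62.2% were higher, against 47.8% of all genes. Among the equally dim genes of the Hox signal range 62% were higher, so the Hox share was close to that background.

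Hoxb6 had the largest difference with 4OHT. It read 2.31 and 2.18 untreated, 2.88 and 2.56 with 4OHT, and 2.23 and 3.01 with Shld1, all below the low-signal level. Both 4OHT arrays were above both untreated arrays, but Shld1 replicates lay at either end of the range. The difference was 0.47 (SE 0.24, 95% interval -0.06 to 1.00, adjusted p = 0.96 in limma). Hoxb1, whose arrays are given above, was higher by 0.35 (SE 0.21, adjusted p = 0.96 in limma). Hoxc4 read 3.86 on 4OHT replicate 1 and 3.12 on replicate 2, against 3.01 and 3.31 untreated; its difference of 0.33 (SE 0.23) was -0.04 without 4OHT replicate 1.

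Smaller positive differences were those of Hoxc8 (0.19, SE 0.15), a gene of the thorax and forelimb motor neurons, and Hoxa2 (0.17, SE 0.14), which patterns the branchial arches. Hoxa2 had a mean of 2.88 ± 0.007 untreated and 3.05 ± 0.076 with 4OHT (SD, n = 2), and the groups did not overlap. On the negative side were Hoxd13 (-0.19, SE 0.16), Hoxb5 (-0.16, SE 0.15), Hoxd9 (-0.20, SE 0.19), Hoxa13 (-0.12, SE 0.17) and Hoxa5 (-0.09, SE 0.14). Hoxd9 read 4.36 on untreated replicate 1 and 3.84 to 3.96 on the other untreated and both 4OHT arrays. Its difference was 0.06 without untreated replicate 1, and that of Hoxa13 was 0.08 without 4OHT replicate 1. Without untreated replicate 1, Hoxd13 was at -0.031 and Hoxb5 at -0.052.

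Both 4OHT arrays exceeded both untreated arrays for 8 Hox genes (21.6%): Hoxa2, Hoxb1, Hoxb3, Hoxb6, Hoxb7, Hoxc6, Hoxc8 and Hoxd11. Over all genes this held for 17.3%, and over genes in the Hox signal range for 24.1%. The reverse held for 1 Hox gene, Hoxb5 (2.7%), against 20.4% and 11.7%. By cluster, the median difference was 0.01 in Hoxa, 0.13 in Hoxb, 0.12 in Hoxc and -0.02 in Hoxd. All 4 genes of paralog group 4 were higher and all 4 of group 13 lower, by medians of 0.06 and -0.10; these groups were picked after their values were seen and given no test.

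The intervals describe the precision of these arrays. They rest on the spread between duplicates, which may be technical, so they may not bound a difference between separate cultures. For 4OHT the 95% interval of 36 of 37 Hox genes lay within 2-fold in either direction, the exception being Hoxb6 with an upper bound of 1.00, and that of 30 lay within 1.5-fold. The median half-width of an interval was 0.38. For dim probe sets a log2 difference may understate a change of RNA, because background signal is part of both values.

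**Figure D4:**
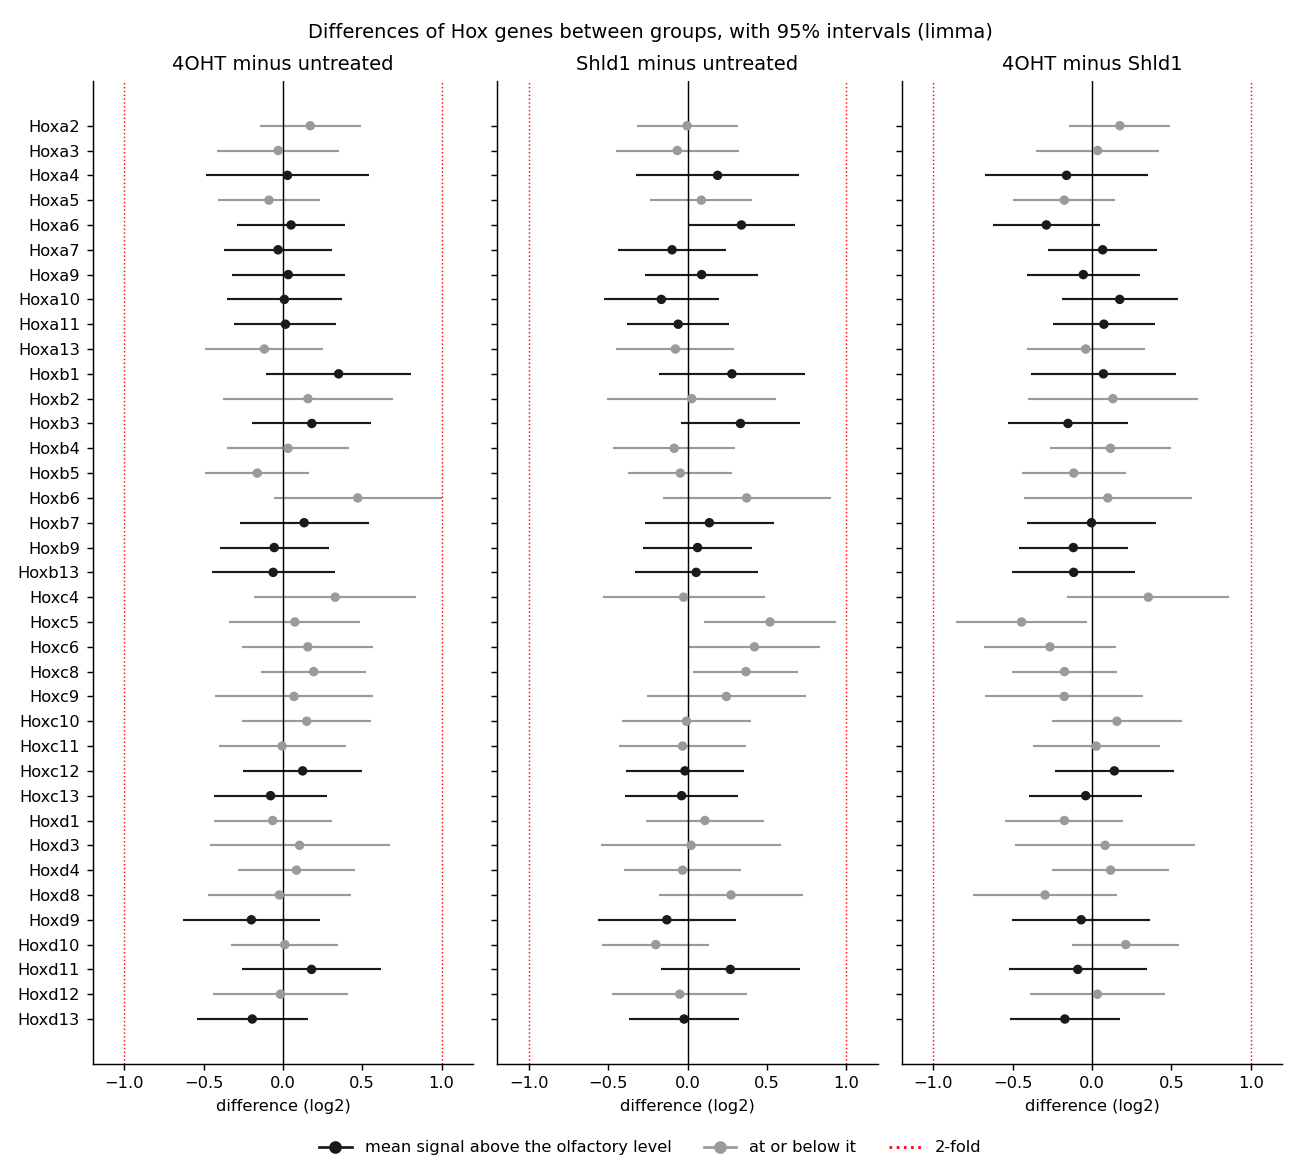
Log2 difference (x axis) of each Hox gene (y axis) for 4OHT minus untreated, Shld1 minus untreated and 4OHT minus Shld1, with 95% intervals from limma; black points are genes with a mean above the low-signal level and grey points those at or below it, and dotted lines mark 2-fold. Most intervals cross 0, and the largest differences are those of dim genes: Hoxb6 with 4OHT (0.47) and Hoxc5 with Shld1 (0.52).

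With Shld1 no Hox gene passed the adjusted test either, where 0% of all genes did (limma). At an unadjusted p under 0.05, 4 Hox genes (10.8%) were higher and 0 lower, against 2.41% and 1.94% of all genes and 3.72% and 2.58% of genes in the Hox signal range. These 4 were Hoxc5, Hoxc8, Hoxc6 and Hoxa6, all central genes, each with an adjusted p of 0.999 in limma. Hox differences ran from -0.20 to 0.52 with a median of 0.02, against -0.004 over all genes, and 19 were higher and 18 lower. The share higher was 51.4%, against 48.9% of all genes and 56.5% of genes in the Hox signal range.

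Hoxc5, a gene of the neck and upper trunk, read 2.44 and 2.57 untreated, 2.67 and 2.48 with 4OHT, and 2.77 and 3.27 with Shld1. Both Shld1 arrays were the highest of the 6, with replicate 2 set apart from replicate 1. The difference from untreated was 0.52 (SE 0.18, interval 0.11 to 0.93), and 0.27 without Shld1 replicate 2. Hoxc6, which acts in the thorax and in forelimb motor neurons, read 2.53 and 2.62, 2.63 and 2.84, and 2.75 and 3.25 in the same order. Its Shld1 arrays were above both untreated arrays, and 4OHT replicate 2 was above Shld1 replicate 1. The difference was 0.42 (SE 0.18, interval 0.0089 to 0.84), and 0.17 without Shld1 replicate 2.

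Hoxc8 and Hoxa6 did not rest on that array. Hoxc8 read 2.48 and 2.74 untreated, 2.84 and 2.78 with 4OHT, and 2.99 and 2.98 with Shld1. The groups stood in this order with no overlap, and the Shld1 duplicates were nearly equal. The difference was 0.37 (SE 0.15) with both Shld1 arrays and without Shld1 replicate 2, and 0.24 without untreated replicate 1. Hoxa6, a thoracic gene and the only 1 of the 4 with a mean above the low-signal level, read 3.72 and 3.60 untreated, 3.57 and 3.85 with 4OHT, and 4.01 and 3.98 with Shld1. Both Shld1 arrays were above the 4 others. Its difference was 0.34 (SE 0.15, interval 0.0015 to 0.68), and 0.36 without Shld1 replicate 2.

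Hoxb3 was higher by 0.33 (SE 0.17, interval -0.04 to 0.71), and by 0.12 without Shld1 replicate 2, where it read 5.04. The lower members were Hoxd10 (-0.20, SE 0.15), which acts in lumbar motor neurons, Hoxa10 (-0.17, SE 0.16), Hoxd9 (-0.13, SE 0.19), Hoxa7 (-0.10, SE 0.15) and Hoxb4 (-0.08, SE 0.17). Without Shld1 replicate 1 the difference of Hoxd10 was -0.065, and without untreated replicate 2 that of Hoxa10 was -0.045. Hoxd10 read 3.43 and 3.35 untreated, 3.44 and 3.35 with 4OHT, and 3.05 and 3.32 with Shld1. Only Hoxd10 and Hoxa7 had both Shld1 arrays below both untreated arrays (5.41%, against 17.3% of all genes and 13.4% in the Hox signal range). Above both were 5 members (13.5%, against 15.2% and 18.3%): the 4 central genes and Hoxb3.

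Central genes as a zone had a median difference of 0.31 with Shld1, 8 of 10 being higher, against 0.02 for anterior and -0.03 for posterior genes. Without Shld1 replicate 2 the central median was 0.10, with 7 of 10 higher, an alternative chosen after seeing the data. This zone was singled out after its values were seen and was given no test. Its median by array was 2.81 and 2.78 untreated, 2.86 and 2.81 with 4OHT, 2.96 on Shld1 replicate 1 and 3.26 on Shld1 replicate 2. The highest of these fell on Shld1 replicate 2, an array with raised low signal. The part of that array's scale in the difference was not tested beyond leaving it out. With Shld1 the 95% interval of all 37 Hox genes lay within 2-fold, and that of 25 within 1.5-fold.

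Across members, Shld1 replicate 2 was most often the highest array, for 14 of 37 Hox genes (37.8%). Over all genes it was highest in 22%, over genes in the Hox signal range in 28.1% and over olfactory receptors in 45.7%. 4OHT replicate 1 was highest for 10 (27%), against 18.3% of all genes and 29.4% in the Hox signal range. Untreated replicate 2 was highest for 0, against 14.8% and 10.2%. The median Hox gene read 3.59 and 3.40 on the untreated arrays, 3.71 and 3.34 with 4OHT, and 3.32 and 3.54 with Shld1, so the duplicates of each group differed by more than the groups did. The median SD between duplicates was 0.13 untreated, 0.11 with 4OHT and 0.17 with Shld1 for Hox genes. Over all genes it was 0.09, 0.12 and 0.14, and over genes in the Hox signal range 0.11, 0.14 and 0.15.

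**Figure D5:**
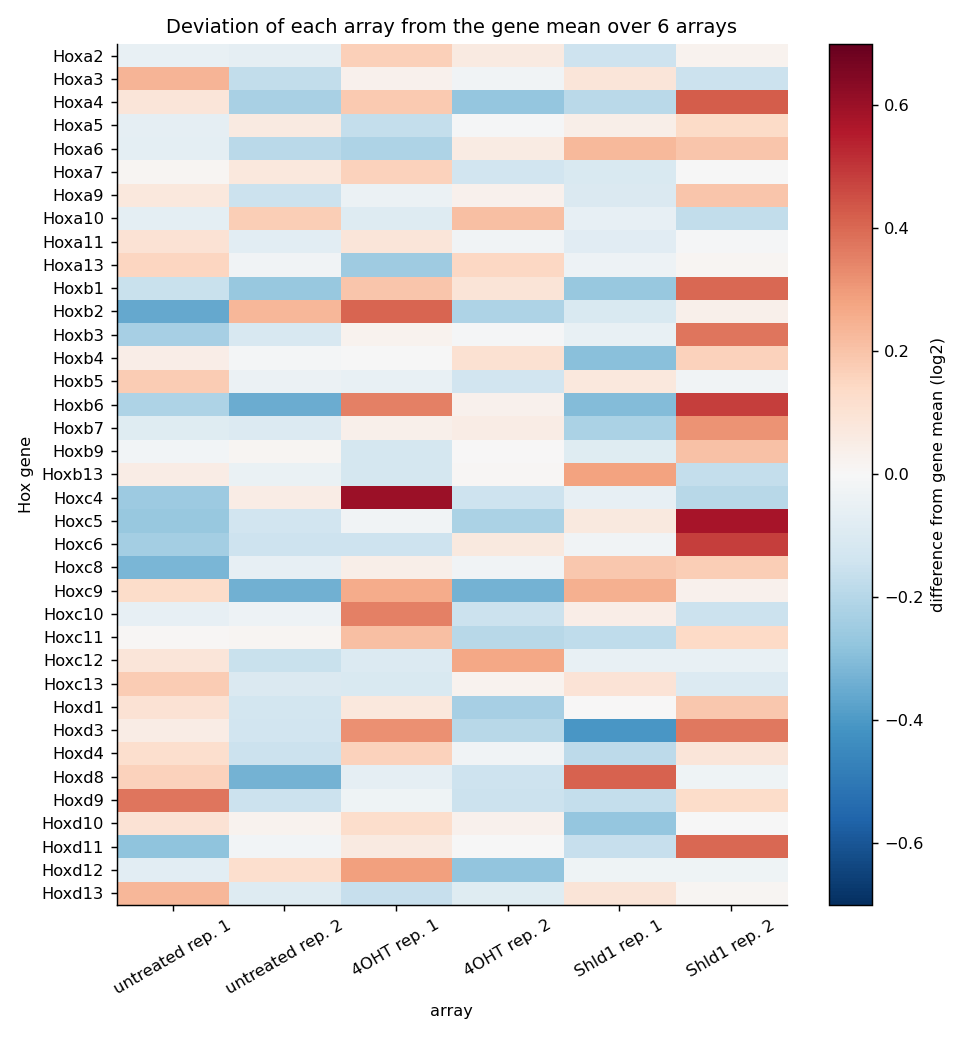
Deviation of each array (x axis) from a Hox gene's mean over 6 arrays (y axis, genes in cluster order), in log2 units, red above and blue below the mean. The strongest reds are single arrays, Hoxc4 on 4OHT replicate 1 and Hoxc5, Hoxc6 and Hoxb6 on Shld1 replicate 2, rather than both duplicates of a group.

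4OHT and Shld1 were also compared directly, both at 1 µM and for lengths of time that the labels leave out. No Hox gene passed the adjusted test (0% of all genes; limma), and 1 was lower with 4OHT at an unadjusted p under 0.05 (2.7%, against 3.1% of all genes and 2.82% in the Hox signal range); none was higher, against 2.5% and 4%. This was Hoxc5, lower with 4OHT by 0.44 (difference -0.44, SE 0.18, adjusted p = 0.87 in limma). Without Shld1 replicate 2 the difference was -0.19. The median over Hox genes was -0.04, with 17 higher and 20 lower with 4OHT. The share higher was 45.9%, against 49.1% of all genes and 55.9% in the Hox signal range.

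Lower with 4OHT were next Hoxa6 (-0.29, SE 0.15), Hoxd8 (-0.30, SE 0.20), Hoxc6 (-0.27, SE 0.18) and Hoxa5 (-0.18, SE 0.14). Hoxd8 was at -0.075 without Shld1 replicate 1 and -0.52 without replicate 2, and Hoxc6 at -0.52 and -0.012. Higher with 4OHT were Hoxc4 (0.35, SE 0.23), Hoxd10 (0.21, SE 0.15), Hoxa2 (0.18, SE 0.14), Hoxa10 (0.17, SE 0.16) and Hoxc10 (0.16, SE 0.18), of which Hoxc4 (-0.02) and Hoxc10 (-0.09) turned without 4OHT replicate 1. Both 4OHT arrays lay below both Shld1 arrays for 7 members (18.9%, against 15.6% of all genes and 12.2% in the Hox signal range), Hoxa5, Hoxa6, Hoxb5, Hoxc5, Hoxc8, Hoxd8 and Hoxd13, and above them for 2 (5.41%, against 14.9% and 18.9%), Hoxa2 and Hoxd10. All 37 intervals lay within 2-fold and 27 within 1.5-fold. A test for any difference among the 3 groups (limma's F test) called no Hox gene and 0% of all genes; at an unadjusted p under 0.05 it passed 1 Hox gene, Hoxc5 (adjusted p = 0.98), and 4.8% of all genes.

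The genes that act on the clusters showed no difference past the adjusted test in any comparison either. Of 31 polycomb genes, 8 were higher and 23 lower with 4OHT (median -0.03), and 11 higher and 20 lower with Shld1 (median -0.06); 0 passed an unadjusted p under 0.05 in these comparisons (limma). Over all genes, 47.8% were higher with 4OHT and 48.9% with Shld1, and at an unadjusted p under 0.05 2.57% were higher and 2.42% lower with 4OHT, and 2.41% and 1.94% with Shld1. Of 15 trithorax and demethylase genes, 7 were higher with 4OHT and 2 with Shld1 (median -0.11). Polycomb genes had their lowest value on 4OHT replicate 1 for 12 and on Shld1 replicate 2 for 13 of 31. It lay on 4OHT replicate 2 for 3 and on Shld1 replicate 1 for 1. For 8 of the 15 trithorax and demethylase genes it lay on Shld1 replicate 2. Over all 19938 genes, 4OHT replicate 1 was lowest for 4458 and Shld1 replicate 2 for 4379. Those arrays had the narrowest spread of values, and its part in these counts was not tested. The share of genes higher depended on signal: in the Hox signal range it was 62% with 4OHT and 56.5% with Shld1. Among genes outside that range it was thus lower than over all genes. No share was computed over genes as bright as the polycomb and trithorax genes, so their counts have no matched background. Between the drugs, Setd1b, which methylates H3K4, was 0.61 higher with 4OHT (SE 0.19, adjusted p = 0.87 in limma) and Pcgf5, a subunit of a polycomb complex, had a difference of -0.52 (SE 0.17).

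In the retinoic acid list, Crabp2, which carries retinoic acid to its receptor, read 6.64 and 6.39 untreated, 5.79 and 6.01 with 4OHT, and 6.55 and 6.26 with Shld1. Both 4OHT arrays were the lowest, and the difference was -0.61 (SE 0.17, adjusted p = 0.96 in limma). Stra8, a retinoic acid target of germ cells, was at -0.42 (SE 0.14) and Rxrg, a receptor partner with signal near background, at 0.38 (SE 0.14). The enzyme gene Cyp26a1 differed by 0.04 with 4OHT and 0.03 with Shld1 (SE 0.15 each), and Rarb by 0.08 and -0.06 (SE 0.18 each). Among the TALE cofactors Meis2 was at -0.43 with Shld1 (SE 0.23) and 0.70 higher with 4OHT than with Shld1 (SE 0.23). The Cdx genes differed by -0.20 to 0.23 with 4OHT and by -0.13 to 0.17 with Shld1, with none at an unadjusted p under 0.05.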

How the data were processed

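Single-colour Affymetrix arrays measured 6 samples, 2 per group by the labels. The deposited table held the authors' values for 35556 probe sets, taken as log2 from their range; background correction, summarization, normalization and build are not given in the sources used here, and limma 3.14 appears in the submitters' processing notes with no role stated. Probe sets with exactly 1 symbol in the platform annotation (21789; 1621 had several, 12146 none) were named, 21698 of them through the current gene record, and the brightest per gene was kept. Values were used as deposited. Differences came from group means over 6 arrays fitted by limma 3.58.1 (R 4.3.3), empirical Bayes without trend (3 residual and 6.77 prior degrees of freedom), two-sided tests and Benjamini-Hochberg adjustment over 19938 genes; the steps were tested on simulated data. An exact permutation test of 2 against 2 arrays cannot go below 0.333, so none was used. The number of arrays limits the precision.

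Members and gene lists were chosen with earlier results of these data known. Named members were the 5 with the largest positive and 5 with the largest negative moderated statistic per comparison and all above the low-signal level; lists gave up to 3 genes per comparison by the same statistic, plus levels of flanks and stem cell markers. Other genes named for their levels (Suz12, Ezh2, Jarid2, Rara, Rarg, Rarb, Cyp26a1, Cdx genes, noncoding genes and fibroblast markers) were chosen after their values were seen. Alternatives were normalization, moderation, filters, handling of probe sets, array weights, the samples fitted, a replicate block and leaving out arrays.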

Additional observations from a re-analysis of the deposited data

How the results depend on the processing

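No Hox gene passed the adjusted test in any comparison under any alternative run; the lowest adjusted p of a Hox gene was 0.608 for 4OHT, 0.147 for Shld1, 0.217 for 4OHT against Shld1 and 0.243 for any group (limma). The Hox median difference stayed between -0.02 and 0.11 for 4OHT (leaving out 1 array, -0.01 to 0.09), -0.03 and 0.07 for Shld1 (-0.02 to 0.10) and -0.07 and 0.005 between the drugs (-0.11 to 0.08), so its sign is not settled. Calls over all genes, 0 in each comparison as reported, became 1 between the drugs with an intensity trend; with arrays centred on their olfactory receptors they became 2 for Shld1, 5 between the drugs and 5 for any group, none of them Hox genes. The count of Hox genes above the low-signal level, 16, was 15 to 16 without 1 array, 5 at the 99th percentile, 25 with vomeronasal receptors and 0 with defensin and keratin-associated genes. Leaving out 1 array at a time took the 4OHT difference of Hoxc4 from -0.042 to 0.70, of Hoxd9 from -0.46 to 0.063 and of Hoxa13 from -0.31 to 0.078. It took the Shld1 difference of Hoxd9 from -0.39 to 0.13 and of Hoxb4 from -0.31 to 0.14, and the difference between the drugs of Hoxc4 from -0.018 to 0.73 and of Hoxc10 from -0.095 to 0.41. With 4OHT replicate 1 and Shld1 replicate 2 both left out, Hoxc4 was -0.042 with 4OHT and -0.087 between the drugs, Hoxa13 0.078 with 4OHT, and Hoxc10 -0.19 and Hoxc6 0.094 between the drugs. The other 504 values of named members kept their direction and their side of the threshold. Cyclic loess, both arrays left out, olfactory centring and the crossed block were chosen after seeing the data. Leaving out the dimmest 40% of genes left no value for the dim members.

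Replicate numbers are shared between groups but the labels do not say that they mark a shared culture or day, and the correlation of same-numbered deviations was 0.05, -0.08 and -0.19. With the replicate block 0 genes and 0 Hox genes were called in each comparison, and with crossed numbers 7 genes and 0 Hox genes between the drugs. The cause of these shifts was not tested.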

Other observations

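Of 11 distal-less (Dlx) and sine oculis homeobox genes, which pattern the forebrain, face and sense organs, 7 (63.6%, against 64.4% of all genes) had a mean above the low-signal level, and the median was 3.93. With 4OHT 9 of the 11 genes were higher and 2 lower than untreated (median 0.16), where 47.8% of all genes and 62% in the Hox signal range were higher. With Shld1 3 were higher and 8 lower (median -0.04), where these shares were 48.9% and 56.5%. The list's median by array was 3.77 and 3.96 untreated, 4.22 and 4.13 with 4OHT, and 3.96 and 3.71 with Shld1. Between the drugs 10 of 11 were higher with 4OHT (median 0.23), against 49.1% of all genes and 55.9% of genes in the Hox signal range. For 7 of the 11 both 4OHT arrays lay above both Shld1 arrays, against 14.9% of all genes and 18.9% in that range; none passed the adjusted test (limma). Dlx6 read 4.27 and 4.48 untreated, 4.24 and 4.13 with 4OHT, and 4.07 and 3.78 with Shld1, so both Shld1 arrays were the lowest (difference from untreated -0.45, SE 0.16). Dlx1 had a difference of -0.36 (SE 0.16).

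Of 10 genes of the posterior growth zone, the tail-end tissue in which Hox genes are first switched on, 6 (60%) were above the level, against 64.4% of all genes. Msgn1, a gene of presomitic mesoderm, read 4.19 and 4.31 untreated, 4.92 and 4.89 with 4OHT, and 4.65 and 4.12 with Shld1. Both 4OHT arrays were the highest (difference 0.65, SE 0.18, adjusted p = 0.96 in limma). Gdf11, a signal that promotes posterior Hox expression, was at 0.41 with 4OHT (SE 0.16). Cdx1, Cdx2 and Cdx4 belong to this list and to the ParaHox list. Of the 4 hindbrain Hox regulators measured, 2 were higher and 2 lower with 4OHT. Otx2, a factor of the forebrain and midbrain, read 7.67 and 7.61 untreated, 6.93 and 7.28 with 4OHT, and 7.53 and 7.52 with Shld1, and its 4OHT difference was -0.54 (SE 0.16). Gbx2, a factor of the anterior hindbrain, read 5.30 and 5.50, 5.81 and 6.08, and 5.49 and 5.82, with a difference of 0.55 (SE 0.17). Both passed an unadjusted p under 0.05, as did 2.57% of all genes upward and 2.42% downward, and had an adjusted p of 0.96 (limma). Egr2, which activates hindbrain Hox genes, read 3.31, below the level.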
